A study of Mus musculus with 8 samples.

Results

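Collagen transcripts of the gravid d18.0 mouse uterus were compared between Cox-1 KO and wild-type mice. The collagens are all genes whose symbol in the annotation of the array starts with Col and a digit, and 33 such genes were measured among 13120 genes with a single symbol. Of these, 9 were fibrillar, 6 were the chains of the type IV network of basement membranes, and 18 were of other types. On their brightest probe sets, the chains of collagens I, III and V and the type VI chains Col6a1, Col6a2 and Col6a3 differed by at most 0.10 on the log2 scale between the genotypes. Col6a4 gave -0.39, and dimmer probe sets of Col1a2 and Col3a1 gave -0.18 to -0.07. Col4a5 and Col4a6, adjacent genes on chromosome X that encode a pair of type IV chains, had a lower signal on every Cox-1 KO array than on any wild-type array on the brightest probe set of each gene. No collagen gene passed an adjusted p of 0.05.

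Collagens are triple helices of alpha chains that are secreted and assembled outside the cell. Fibrillar collagens form the tensile fibers of stroma, type IV collagens form the sheet-like network under epithelia and around muscle cells and vessels, and the other collagens decorate fibrils, anchor basement membranes or span the plasma membrane. In the pregnant uterus and cervix collagen carries load, and its content and cross-linking are remodeled as delivery approaches.

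The uteri came from 4 Cox-1 KO mice, which lack cyclooxygenase-1 (gene Ptgs1) and deliver late, and from 4 wild-type mice, all pregnant females killed on gestational d18.0. Per the labels the Cox-1 KO mice were C57BL/6 x Sv129, the wild-type mice were C57BL/6 and all were 6 to 16 weeks old. The methods name another substrain of the 129 mouse and a narrower range of ages. The groups thus differed in background as well as in the deletion, and the parts of these cannot be told apart. Fetuses, fetal membranes and placenta were removed, and RNA of the uterus of a single mouse was hybridized to each Affymetrix mouse 430 2.0 array.

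The deposited values are MAS5 signal intensities on a linear scale for 28000 probe sets, and array medians were 731 to 757. Ptgs1 had signals of 88, 122, 76 and 136 on Cox-1 KO replicates 1 to 4, and of 7048, 10610, 10756 and 10508 on wild-type replicates 1 to 4. All 6 listed myometrium markers were bright, with signals of 25159 to 72540 in Cox-1 KO and 24808 to 70074 in wild-type uterus. All 6 listed stroma and decidua markers had a probe set. Their signals ran from 300 to 43884 in Cox-1 KO and from 167 to 26846 in wild-type uterus. Summed, they gave 55490, 78686, 57592 and 84358 in Cox-1 KO, against 60098, 67459, 64709 and 63186 in wild-type uterus. The part of stroma and decidua content in the collagen values was not tested. The arrays were not alike in 16 listed genes of yolk sac and fetal liver, of which 14 were measured. Their summed signal was 438471, 44089, 352163 and 309215 on Cox-1 KO replicates 1 to 4, against 32214, 37172, 40788 and 285061 on wild-type replicates 1 to 4. Cox-1 KO replicates 1, 3 and 4 and wild-type replicate 4 were thus high in these transcripts, with an Apoa1 signal over 10000. Rbp4, which is part of these sums, did not follow this split. Its signal was 34613, 34145, 36878 and 39535 in Cox-1 KO and 26827, 30136, 32440 and 32401 in wild-type uterus.

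Differences are given as log2 fold changes, Cox-1 KO minus wild-type, and p-values were adjusted over all probe sets by the Benjamini-Hochberg method in the limma fit. A gene was represented by the probe set with the highest mean log2 signal and was tested if this probe set reached a signal of 100 on at least 4 arrays. Of the 33 collagens 30 were tested, and Col6a5, Col9a1 and Col13a1 were too dim. None of the 30 passed an adjusted p of 0.05, a threshold passed by 0.0079% of all 12660 genes tested (1 gene, Mzb1). Ptgs1 also passed (adjusted p = 5.66e-08), but the annotation gave its probe set no symbol and it is not in this count. At an unadjusted p under 0.05, 4 of the 30 were lower, where 4.37% of all genes were, and 0 of the 30 were higher, where 4.83% of all genes were. These 4 were Col4a5, Col4a6, Col11a1 and Col15a1. The Cox-1 KO signals were all below the lowest wild-type signal for 2 of the 30, against 2.5% of all genes, and all above the highest wild-type signal for 0 of the 30, against 1.84% of all genes. The median log2 fold change was 0.02 over the 30 collagens, 16 of them above 0 and 14 below. Over all genes tested it was -0.01, and 52.75% of them were below 0. By class the median was 0.02 for fibrillar, 0.10 for basement membrane and -0.03 for other collagens. The basement membrane median was 0.04 without Cox-1 KO replicate 1, 0.06 without wild-type replicate 1, 0.05 with a covariate of yolk sac transcripts and 0.04 without the 4 arrays high in Apoa1. The median of the other collagens was 0.04 without wild-type replicate 1.

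**Figure D1:**
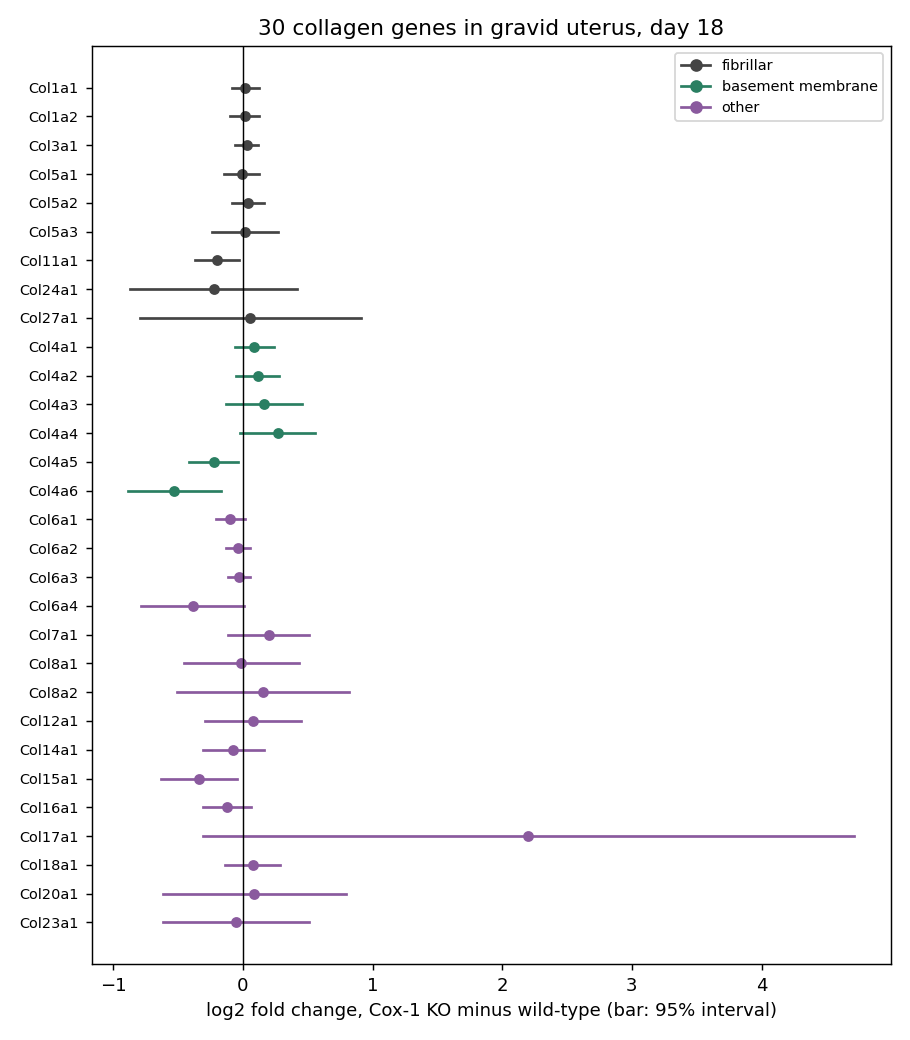
Log2 fold change (Cox-1 KO minus wild-type) of the 30 collagen genes tested, one gene per row, colored by class. Points are the limma estimates from 4 Cox-1 KO and 4 wild-type arrays and bars are 95% intervals; the intervals of Col4a5, Col4a6, Col11a1 and Col15a1 lie below 0, and that of Col17a1, a dim gene, runs from -0.31 to 4.72.

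The type IV genes lie in head-to-head pairs, and on the brightest probe sets the X-linked pair had log2 fold changes below 0 and the other pairs had values above 0. The second probe set of Col4a3, at -0.09 (adjusted p = 0.912), was an exception. The adjacent genes are Col4a1 and Col4a2 on chromosome 8, Col4a3 and Col4a4 on chromosome 1, and Col4a5 and Col4a6 on chromosome X. The 3 sequences below are promoter windows of RefSeq on GRCm38.p6, from 250 bases before to 50 after a start site, and are shown because every Cox-1 KO signal of the X-linked pair was below its wild-type signals on the brightest probe sets, unlike those of Col4a1. Capitals mark every CCAAT and GGGCGG in either orientation, the reverse complements being ATTGG and CCGCCC, and each window is written 5′ to 3′ on the strand of its gene.
Col4a5, chrX:141475169-141475468, plus strand: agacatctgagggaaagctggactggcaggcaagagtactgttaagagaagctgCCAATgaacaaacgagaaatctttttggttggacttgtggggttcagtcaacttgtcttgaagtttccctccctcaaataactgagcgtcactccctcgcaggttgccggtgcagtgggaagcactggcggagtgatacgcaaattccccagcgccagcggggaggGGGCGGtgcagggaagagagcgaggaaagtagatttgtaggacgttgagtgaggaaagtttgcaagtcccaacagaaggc
Col4a6, chrX:141474027-141474326, minus strand: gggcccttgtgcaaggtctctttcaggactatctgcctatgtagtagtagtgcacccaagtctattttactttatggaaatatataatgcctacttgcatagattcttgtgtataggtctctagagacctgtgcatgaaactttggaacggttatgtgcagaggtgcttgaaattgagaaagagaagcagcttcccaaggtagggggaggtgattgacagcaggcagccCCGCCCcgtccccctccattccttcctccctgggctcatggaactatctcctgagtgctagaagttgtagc
Col4a1, chr8:11312777-11313076, minus strand: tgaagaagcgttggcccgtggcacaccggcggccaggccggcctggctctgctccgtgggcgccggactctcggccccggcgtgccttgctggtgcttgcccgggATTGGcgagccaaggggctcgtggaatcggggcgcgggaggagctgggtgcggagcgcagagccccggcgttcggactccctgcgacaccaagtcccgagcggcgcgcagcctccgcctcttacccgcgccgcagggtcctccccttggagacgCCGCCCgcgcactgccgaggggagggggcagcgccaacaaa
The start sites of Col4a5 and Col4a6 are 1343 bases apart, and their windows share 0 bases. Those of Col4a1 and Col4a2 are 21 bases apart, so that their windows share 78 bases. The Col4a5 window holds 1 CCAAT and 1 GGGCGG, the Col4a6 window 1 GGGCGG and 0 CCAAT, and the Col4a1 window 1 of each. Over the windows of the measured collagens, 38.7% of 31 hold CCAAT and 61.3% hold GGGCGG, against 37.4% and 35.7% of all 32851 windows. The TATA motif TATAAA, in either orientation, was in 9.7% of the collagen windows and 13.6% of all windows. The motifs can overlap at their ends, although none did in the windows shown, and a match describes letters only.

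Col4a6 encodes the alpha6 chain of type IV collagen, which joins the alpha5 chain in basement membranes of smooth muscle. Its signal was 1546, 1323, 1113 and 1226 on Cox-1 KO replicates 1 to 4, against 2670, 1715, 1700 and 1559 on wild-type replicates 1 to 4. The groups did not overlap, but the highest Cox-1 KO array lay only just below the lowest wild-type array, and wild-type replicate 1 stood above the other wild-type arrays. The log2 fold change was -0.53 (standard error 0.16, 95% interval -0.89 to -0.17), with an unadjusted p = 0.00756 and an adjusted p = 0.489. The exact permutation test on log2 signal gave a two-sided p = 0.0286, the smallest that 4 arrays against 4 allow. A second, dimmer probe set of Col4a6 had 741, 730, 558 and 569 in Cox-1 KO and 1409, 826, 753 and 733 in wild-type uterus. Its groups overlapped by 1 array, and its log2 fold change was -0.48 (adjusted p = 0.552).

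Col4a5 encodes the alpha5 chain, which is mutated in X-linked Alport syndrome in humans. Its signal was 8533, 7794, 7952 and 7693 on the Cox-1 KO arrays, against 11310, 8876, 8842 and 8552 on the wild-type arrays. The groups did not overlap, although Cox-1 KO replicate 1 and wild-type replicate 4 were nearly level. The log2 fold change was -0.22 (standard error 0.085, 95% interval -0.41 to -0.04), with an adjusted p = 0.535 and an exact two-sided permutation p = 0.0286. The dimmer probe set of Col4a5 had 3155, 2904, 2942 and 2663 in Cox-1 KO, against 4586, 3481, 3328 and 3394 in wild-type uterus. These groups did not overlap either, with a log2 fold change of -0.33 (adjusted p = 0.489). Both probe sets of a gene read the same RNA samples and are not independent of each other.

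The other type IV chains had log2 fold changes above 0 on their brightest probe sets, and none passed the test. Col4a1, a chain of the network common to nearly all basement membranes, had a signal of 38761, 32540, 32775 and 32495 in Cox-1 KO and of 29907, 30563, 34303 and 33559 in wild-type uterus. The groups overlapped, and Cox-1 KO replicate 1 stood above the other Cox-1 KO arrays. Its log2 fold change was 0.09 (95% interval -0.06 to 0.24, adjusted p = 0.729). Col4a2, its partner chain, had 23475, 19972, 19223 and 20242 in Cox-1 KO and 16921, 19276, 20524 and 19789 in wild-type uterus, a log2 fold change of 0.12 (95% interval -0.05 to 0.28, adjusted p = 0.674). Wild-type replicate 1, the highest wild-type array for Col4a5 and Col4a6, was the lowest for both of these genes. Col4a3 and Col4a4, which encode chains best known from the kidney glomerulus, had log2 fold changes of 0.16 (adjusted p = 0.747) and 0.27 (adjusted p = 0.586). For Col4a4 the signals were 532, 480, 610 and 456 in Cox-1 KO and 439, 403, 490 and 391 in wild-type uterus, with overlap.

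**Figure D2:**
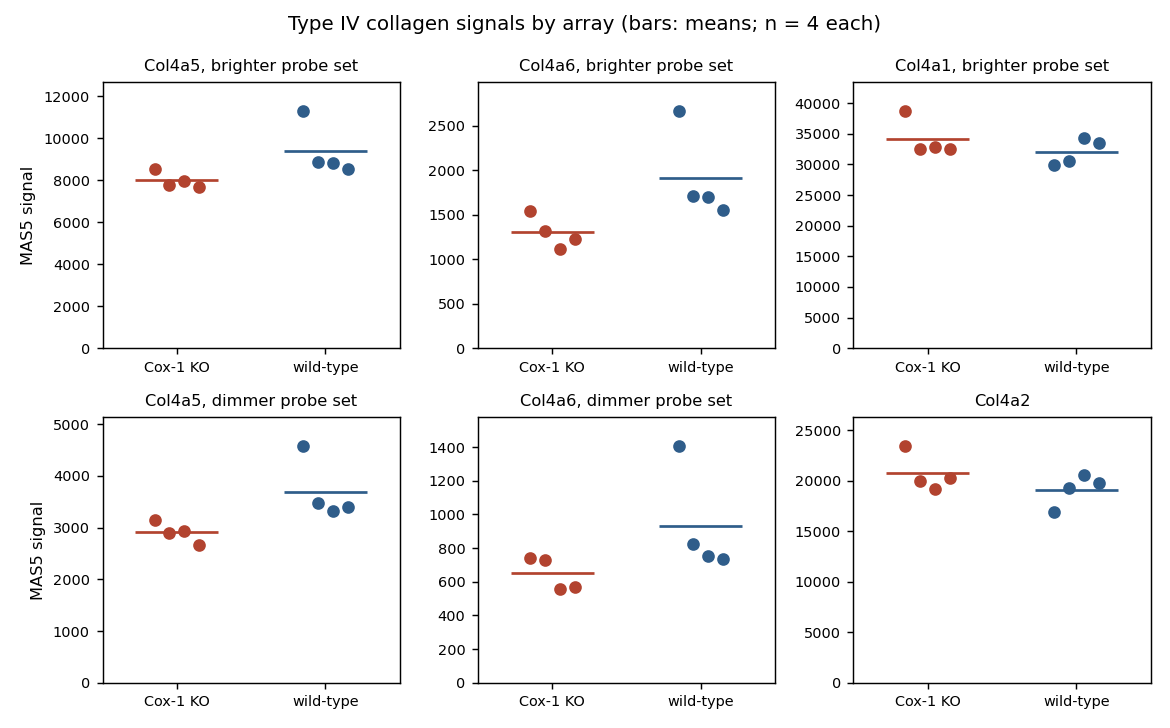
MAS5 signal (linear axis from 0, a separate scale in each panel) of Col4a5, Col4a6, Col4a1 and Col4a2 on each array, Cox-1 KO left and wild-type right, replicates 1 to 4 in order. Points are arrays and bars are means (n = 4 each); both probe sets of Col4a5 and Col4a6 have the lower mean in Cox-1 KO, with wild-type replicate 1 at the top, and Col4a1 and Col4a2 overlap.

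The pairs were also set side by side within each array, as the mean deviation of their probe sets from the mean of the 8 arrays on the log2 scale. For the 4 probe sets of Col4a5 and Col4a6 it was -0.027, -0.151, -0.299 and -0.305 on the Cox-1 KO arrays, against 0.638, 0.099, 0.045 and -0.001 on the wild-type arrays. For the 3 probe sets of Col4a1 and Col4a2 it was 0.204, -0.012, -0.044 and 0.035 on the Cox-1 KO arrays, against -0.169, -0.039, 0.021 and 0.004 on the wild-type arrays. The X-linked pair minus the other pair was negative on every Cox-1 KO array, at -0.34 to -0.139, against -0.005 to 0.807 on the wild-type arrays. This difference was formed after the values were seen and was not tested.

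The log2 fold changes of Col4a1, Col4a2, Col4a5 and Col4a6 kept their sign when arrays were left out or yolk sac transcripts were accounted for. Their sizes changed, in each case by less than the pooled SD of the replicates. Leaving out a single array of 4 cannot move a group mean by that SD, so for single arrays this says nothing about stability. Without wild-type replicate 1 the log2 fold change was -0.13 for Col4a5 (adjusted p = 0.727) and -0.36 for Col4a6 (adjusted p = 0.665). With the mean log2 signal of the yolk sac transcripts on each array as a covariate it was -0.19 for Col4a5 and -0.42 for Col4a6 (adjusted p = 0.934 and 0.893). Without the 4 arrays high in Apoa1, which leaves only Cox-1 KO replicate 2 in its group, it was -0.30 for Col4a5 and -0.58 for Col4a6. Both genes thus moved toward 0 with the covariate and away from 0 without these arrays. The values above 0 of the other pair were smaller under the same settings. Col4a1 gave 0.03 without Cox-1 KO replicate 1, 0.06 without wild-type replicate 1, 0.03 with the covariate and 0.05 without the 4 arrays. Col4a2 gave 0.05, 0.06, 0.07 and 0.08 under these settings in the same order. The summed signal of the 6 myometrium markers was 281487, 261171, 259664 and 272882 in Cox-1 KO and 244534, 280001, 273864 and 277385 in wild-type uterus, so wild-type replicate 1 was the lowest array for this list and none of its markers was near 0. The part of muscle content in the type IV values was not tested. In bulk RNA, fewer cells of a type and less RNA per cell cannot be told apart.

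On their brightest probe sets, the collagens I and III differed little between the genotypes, but for Col1a2 and Col3a1 these probe sets lay near the upper end of the scale, as the highest signal on an array was 77534 to 93060. Col1a1 and Col1a2 encode the chains of type I collagen, the main tensile collagen of stroma, and Col3a1 the chain of type III, which forms mixed fibrils with it. Col1a1 had 45119, 44053, 40551 and 43856 in Cox-1 KO and 40685, 44577, 42647 and 43665 in wild-type uterus. Col1a2 had 60962, 57712, 59223 and 61854 in Cox-1 KO and 55191, 64194, 57637 and 60721 in wild-type uterus. Col3a1 had 70031, 66027, 67001 and 70414 in Cox-1 KO and 65612, 69485, 65639 and 67455 in wild-type uterus. For all 3 genes the groups overlapped, and the SD of an array group was at most 6.56% of its mean. Their log2 fold changes were 0.02 (95% interval -0.09 to 0.12), 0.01 (-0.10 to 0.13) and 0.03 (-0.06 to 0.12), with adjusted p-values of 0.859 to 0.955. The sign of all 3 turned under quantile normalization or another alternative, so no direction is given for them.

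The dimmer probe sets of these genes had log2 fold changes below 0, and none passed the test. A second probe set of Col1a2 had 41110, 40217, 39363 and 41673 in Cox-1 KO, against 42280, 43891, 41955 and 42782 in wild-type uterus. Every Cox-1 KO array was below every wild-type array there, with a log2 fold change of -0.07 (adjusted p = 0.603). The dimmest probe set of Col1a2 gave -0.18 (adjusted p = 0.748). The second probe set of Col3a1 gave -0.14 (adjusted p = 0.572) and that of Col1a1 -0.05 (adjusted p = 0.842). Whether a difference between the genotypes is reduced on the brightest probe sets was not tested.

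The regulatory and minor fibrillar collagens were mixed. Col5a1, Col5a2 and Col5a3 encode the chains of type V collagen, which nucleates type I fibrils, and they had log2 fold changes of -0.01, 0.04 and 0.02 (adjusted p = 0.862 to 0.977). For Col5a1 the signals were 15455 to 17139 in Cox-1 KO and 15501 to 18175 in wild-type uterus. For Col5a2 they were 32306 to 37224 in Cox-1 KO and 30940 to 34724 in wild-type uterus, and for Col5a3 1789 to 2488 in Cox-1 KO and 1965 to 2510 in wild-type uterus, so the groups overlapped for all of these chains. Col11a1, the alpha1 chain of type XI collagen that controls fibril diameter in cartilage, had 4499, 4372, 3764 and 4739 in Cox-1 KO and 4681, 4953, 5043 and 5265 in wild-type uterus. Cox-1 KO replicate 4 lay just above wild-type replicate 1, and the other arrays did not overlap. Its log2 fold change was -0.20 (standard error 0.077, 95% interval -0.37 to -0.03, adjusted p = 0.535), with an exact two-sided permutation p = 0.0571. Its second probe set gave -0.13 (adjusted p = 0.765). Col24a1 and Col27a1, fibrillar collagens of bone and cartilage, were dim, with signals of 101 to 188 and 215 to 749 in Cox-1 KO and of 114 to 209 and 241 to 549 in wild-type uterus. Their log2 fold changes of -0.23 and 0.06 had 95% intervals of -0.87 to 0.42 and -0.80 to 0.91.

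Type VI collagen forms beaded filaments around cells, and none of its 4 tested chains passed the test. Their median log2 fold change was -0.07. All 4 were below 0, as were 52.75% of all genes tested. Col6a3, the longest chain, had 35691, 37609, 35441 and 36461 in Cox-1 KO and 36968, 37170, 36618 and 37670 in wild-type uterus, a log2 fold change of -0.03 (adjusted p = 0.831). Its sign turned without the 4 arrays high in Apoa1, where the value was 0.03. Col6a1 gave -0.10 (95% interval -0.21 to 0.01, adjusted p = 0.598), with signals of 28921 to 31979 in Cox-1 KO and 30646 to 33778 in wild-type uterus. Col6a2 gave -0.04 (adjusted p = 0.803), with signals of 32947 to 35208 in Cox-1 KO and 34668 to 36381 in wild-type uterus. The groups overlapped for both. Col6a4, a chain whose human counterpart is a pseudogene, had 4965, 4243, 4382 and 3779 in Cox-1 KO and 8637, 5708, 4829 and 4315 in wild-type uterus. The groups overlapped, and wild-type replicate 1 was far above the rest. The log2 fold change of Col6a4 was -0.39 (standard error 0.18, 95% interval -0.78 to 0.01, adjusted p = 0.569), and -0.19 without wild-type replicate 1. Its dimmer probe set had 125, 165, 291 and 132 in Cox-1 KO and 353, 340, 270 and 243 in wild-type uterus, with overlap through Cox-1 KO replicate 3. That probe set gave -0.83 (adjusted p = 0.518) and the mean of both gave -0.61 (adjusted p = 0.450), each with an unadjusted p under 0.05.

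Multiplexins are basement membrane proteoglycans that release anti-angiogenic fragments. Col15a1, the multiplexin of muscle and vessels, had 1794, 1653, 2043 and 1626 in Cox-1 KO and 2739, 2018, 1800 and 2544 in wild-type uterus. The groups overlapped, with Cox-1 KO replicate 3 above wild-type replicates 2 and 3. Its log2 fold change was -0.34 (standard error 0.13, 95% interval -0.63 to -0.05, adjusted p = 0.538), with an exact two-sided permutation p = 0.114. Col18a1, the source of endostatin, gave 0.07 (adjusted p = 0.842), with signals of 2475 to 3005 in Cox-1 KO and 2280 to 2996 in wild-type uterus. All 4 listed endothelium markers were measured, and their summed signal was 7298 to 8865 in Cox-1 KO and 8040 to 8908 in wild-type uterus. Of these, Pecam1 had a signal of 2500, 3227, 2878 and 2973 in Cox-1 KO, against 3667, 3550, 3584 and 3306 in wild-type uterus (log2 fold change -0.29, adjusted p = 0.423). The others were mixed, with log2 fold changes of 0.22 for Cdh5, -0.17 for Kdr and -0.07 for Tek (adjusted p = 0.654 to 0.831). None of the 4 had a signal near 0, and the part of vessel content in the Col15a1 values was not tested.

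**Figure D3:**
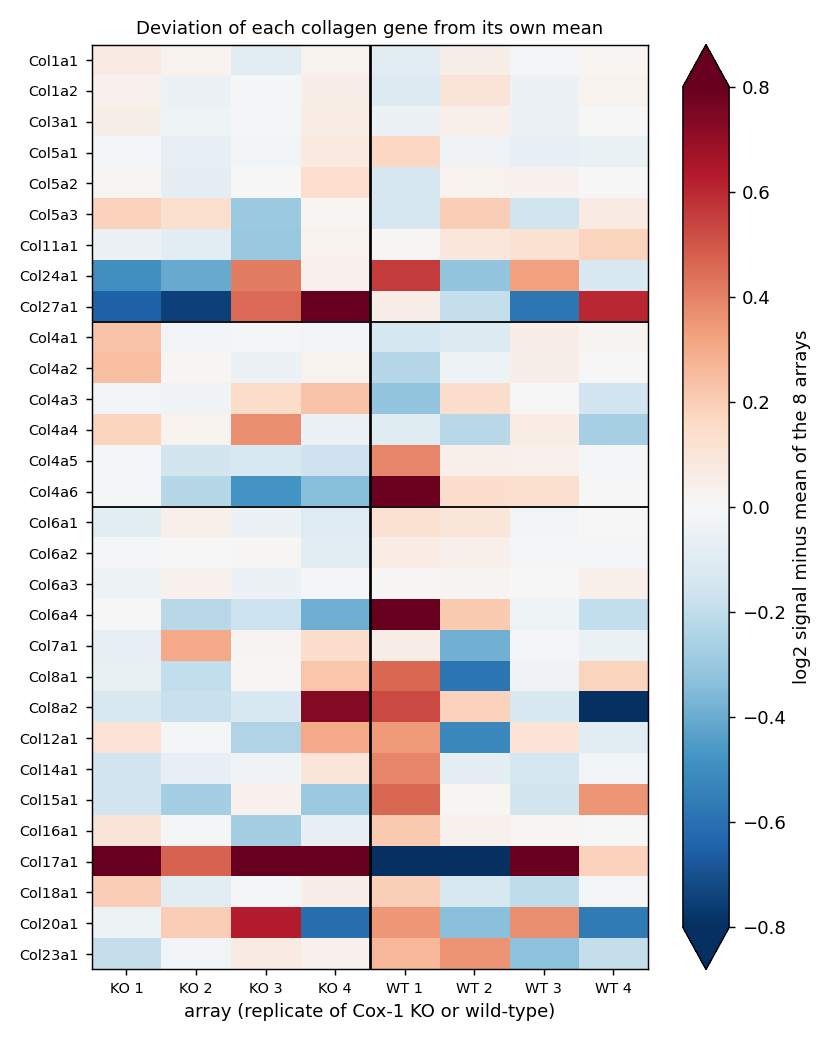
Deviation of each tested collagen gene (rows, grouped as fibrillar, basement membrane and other) from its own mean over the 8 arrays, in log2 units, with Cox-1 KO arrays left of the wild-type arrays. The color scale ends at -0.8 and 0.8. Wild-type replicate 1 was the highest of its group for 15 of the 30 genes and the lowest for 9, and Cox-1 KO replicate 4 was the highest of its group for 12. The rows of Col1a1, Col1a2 and Col3a1 are nearly white.

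None of Col7a1, Col8a1, Col8a2, Col12a1, Col14a1, Col16a1, Col20a1 and Col23a1 passed the test. Their unadjusted p-values in the limma fit were all above 0.05. The fibril-associated Col12a1, Col14a1, Col16a1 and Col20a1 bind to the surface of fibrils, and they had log2 fold changes of 0.08, -0.07, -0.13 and 0.09 (adjusted p = 0.682 to 0.955). Col12a1 had signals of 2905 to 4234 in Cox-1 KO and 2404 to 4355 in wild-type uterus, and Col14a1 had 4843 to 5749 in Cox-1 KO and 4873 to 7056 in wild-type uterus. Col16a1 had 3891 to 5040 in Cox-1 KO and 4688 to 5419 in wild-type uterus, and Col20a1 101 to 237 in Cox-1 KO and 104 to 199 in wild-type uterus. All of these ranges overlapped. Col7a1, the collagen of anchoring fibrils, gave 0.20 (95% interval -0.11 to 0.51, adjusted p = 0.702), with signals of 395 to 511 in Cox-1 KO and 317 to 429 in wild-type uterus. Col8a1 and Col8a2, short-chain collagens of the endothelial and corneal matrix, gave -0.01 and 0.15 (adjusted p = 0.991 and 0.905). Their signals were 396 to 530 in Cox-1 KO and 303 to 624 in wild-type uterus for Col8a1 and 291 to 547 in Cox-1 KO and 177 to 475 in wild-type uterus for Col8a2. Col23a1, a transmembrane collagen, gave -0.06 (adjusted p = 0.965), with signals of 108 to 129 in Cox-1 KO and 98 to 158 in wild-type uterus. Over the 20 collagens with a wild-type mean signal of 1000 or more, the median log2 fold change was -0.02 and the largest in size was that of Col4a6, and all 4 genes lower at an unadjusted p were among them. The 10 dimmer genes had a median SD of log2 signal of 0.30 in Cox-1 KO and 0.42 in wild-type uterus, against 0.11 and 0.10 for the 20 brighter genes, so their estimates are less certain.

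The dim collagens gave the widest spread. Col17a1, a transmembrane collagen of epithelial hemidesmosomes, had 104, 67, 109 and 153 in Cox-1 KO and 4, 5, 236 and 55 in wild-type uterus. The groups overlapped, and the log2 fold change of 2.20 (95% interval -0.31 to 4.72, adjusted p = 0.601) became -0.11 when signals under 100 were set to 100. Col13a1, a transmembrane collagen of cell junctions, had 167, 88, 151 and 153 in Cox-1 KO and 77, 80, 85 and 81 in wild-type uterus. Every Cox-1 KO array was above every wild-type array (exact two-sided permutation p = 0.0286), but all wild-type signals and a Cox-1 KO signal were under 100 and the gene was left out by the filter. Without a filter limma gave a log2 fold change of 0.75, with an unadjusted p under 0.05 and an adjusted p = 0.546. The ratio of its mean signals was 1.73, and it was the only collagen past the thresholds of the methods, which 0.778% of 13118 genes passed without a filter on signal. These thresholds are a ratio of 1.5 and an unadjusted p of 0.05. The methods also required a present call, which could not be applied because the deposited values hold no detection calls. Col6a5 had 83, 39, 5 and 164 in Cox-1 KO and 98, 67, 55 and 37 in wild-type uterus, near background on nearly all arrays.

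Col9a1, a cartilage collagen, was bright on a single array. Its signal was 17, 28, 42 and 1120 on Cox-1 KO replicates 1 to 4, against 41, 100, 99 and 105 on the wild-type arrays. Of 10 listed cartilage and bone markers 5 had a probe set, and Matn1 and Hapln1, matrix proteins of cartilage, were also highest on Cox-1 KO replicate 4. Matn1 had 55, 59, 20 and 283 in Cox-1 KO and 52, 31, 54 and 54 in wild-type uterus. Hapln1 had 49, 4, 15 and 129 in Cox-1 KO and 42, 70, 46 and 3 in wild-type uterus, and its lowest signals of 4 and 3 are near 0. Comp, a cartilage and tendon matrix protein, was instead highest on Cox-1 KO replicate 1, with 893, 205, 408 and 352 in Cox-1 KO and 150, 174, 82 and 322 in wild-type uterus (log2 fold change 1.31, adjusted p = 0.526). Its 4 highest arrays were the 4 arrays high in Apoa1, and the part of the yolk sac transcripts in its value was not tested. Sox9, the transcription factor of chondrocytes, had 438, 432, 418 and 332 in Cox-1 KO and 354, 382, 474 and 440 in wild-type uterus, and so did not follow Col9a1. The summed signal of the 5 markers was 836 to 1576 in Cox-1 KO and 730 to 971 in wild-type uterus, and its part in the Col9a1 value was not tested.

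**Figure D4:**
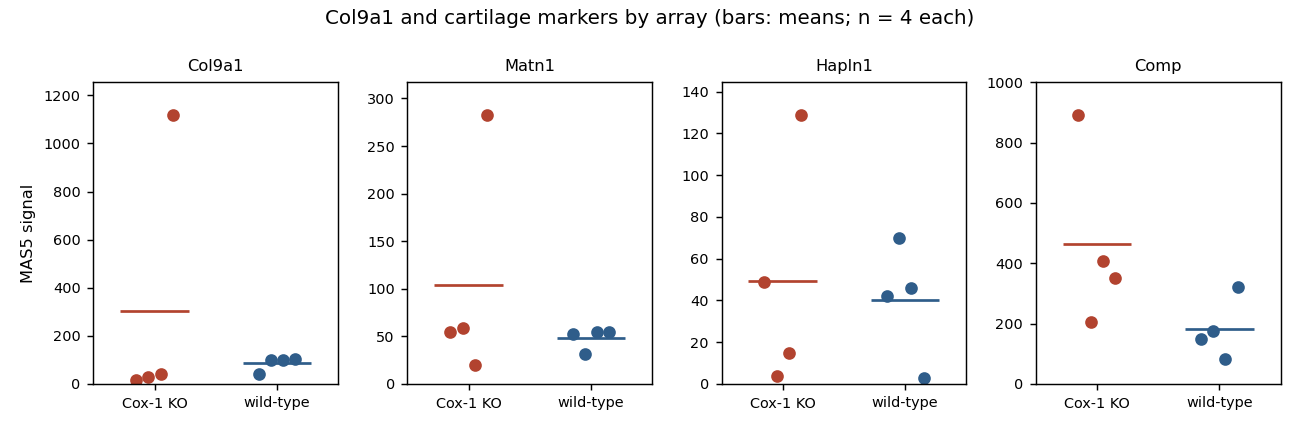
MAS5 signal (linear axis from 0, a separate scale in each panel) of Col9a1, Matn1, Hapln1 and Comp on each array, Cox-1 KO left and wild-type right, replicates 1 to 4 in order. Points are arrays and bars are means (n = 4 each); Cox-1 KO replicate 4 is the top point for Col9a1, Matn1 and Hapln1, and Cox-1 KO replicate 1 for Comp.

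Genes that make, process and bind collagen were listed by role, and none of them passed an adjusted p of 0.05. Of 19 tested enzymes and chaperones of collagen folding, 0 were higher and 0 lower at an unadjusted p under 0.05. Of all genes 4.83% were higher and 4.37% lower, and the median log2 fold change of the 19 was -0.02. The smallest p-values there were those of Serpinh1, the collagen chaperone Hsp47 (-0.08, adjusted p = 0.602), P3h1, a prolyl hydroxylase (-0.18, adjusted p = 0.645), and Fkbp14, a peptidyl-prolyl isomerase (-0.16, adjusted p = 0.646). Of 10 tested lysyl oxidases and processing enzymes 2 were lower, against 4.37% of all genes, and 0 higher, against 4.83% of all genes, at that p, with a median of -0.06. Adamts3, a procollagen N-proteinase, had 1184, 1297, 1249 and 1054 in Cox-1 KO and 1814, 1395, 1468 and 1281 in wild-type uterus (-0.31, adjusted p = 0.531), with overlap by 1 array. Tgm2, a cross-linking transglutaminase, gave -0.14 (adjusted p = 0.538) and Tll1, a procollagen C-proteinase, -0.36 (adjusted p = 0.657). Lox, the main lysyl oxidase, had mean signals of 22160 in Cox-1 KO and 21570 in wild-type uterus, a log2 fold change of 0.04 (adjusted p = 0.873).

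Of 8 tested collagen receptors 2 were lower, against 4.37% of all genes, and 0 higher, against 4.83% of all genes, at an unadjusted p under 0.05, with a median log2 fold change of -0.11. These 2 were Itgb1 and Itga1, which encode integrin subunits. Itgb1, the beta1 subunit of many integrins, had 15182, 15710, 12994 and 14892 in Cox-1 KO and 15727, 16061, 17666 and 16414 in wild-type uterus. These groups did not overlap, by a narrow margin, and its log2 fold change was -0.17 (adjusted p = 0.538). Itga1, the alpha1 subunit, had 4964, 4710, 4580 and 4976 in Cox-1 KO and 4832, 5512, 5767 and 5806 in wild-type uterus, with overlap through wild-type replicate 1 (-0.19, adjusted p = 0.535). Itga10, another collagen-binding alpha subunit, gave -0.39 (adjusted p = 0.634).

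Of 8 tested small leucine-rich proteoglycans, which coat collagen fibrils, 0 were higher and 0 lower at an unadjusted p under 0.05. Of all genes 4.83% were higher and 4.37% lower at that p, so counts of 0 in short lists say little. The median log2 fold change of the 8 was -0.09. Bgn, encoding biglycan, had 26270, 25975, 26252 and 25719 in Cox-1 KO, against 26742, 29719, 27510 and 26678 in wild-type uterus. These groups did not overlap, with a log2 fold change of -0.09 (adjusted p = 0.614). Aspn (asporin) gave -0.14 and Prelp (prolargin) -0.10 (adjusted p = 0.610 and 0.686). Of 13 tested laminins, nidogens and proteoglycans that share basement membranes with type IV collagen, 0 were higher and 0 lower at that unadjusted p. The same shares of all genes apply, and the median was 0.03. Agrn (agrin), Lamb3 and Lama1 had the smallest p-values, with log2 fold changes of 0.28, 0.51 and 0.75 (adjusted p = 0.591 to 0.614). Each was highest on Cox-1 KO replicate 1. There Agrn had 4515, against 3008 to 3169 on the other Cox-1 KO arrays and 2247 to 3131 in wild-type uterus. Lamb3 had 4384, against 1815 to 2690 and 1371 to 2718, and Lama1 had 489, against 107 to 391 and 134 to 218. Of these 13 genes, 9 had log2 fold changes above 0 and 4 had values below 0, as had 52.75% of all genes tested.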

How the data were processed

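Uterine RNA of 4 Cox-1 KO and 4 wild-type mice was measured on 8 Affymetrix mouse 430 2.0 arrays. The authors obtained signal intensities with Microarray Suite (MAS5), each array being scaled to a mean target of 1000, and the deposited table holds these intensities in whole numbers without detection calls. Symbols came from the annotation of the array, in which 653 probe sets carried several symbols and 3768 none, and named no gene. The probe set of Ptgs1 was taken from the study's additional file. Collagen classes, members and gene lists were chosen with earlier results of these data known.

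The log2 of the deposited signal was taken after a floor of 1, which affected 1 value. Tools were limma 3.58.1 in R 4.3.3, with Python 3.11.15 for promoters and figures. The 60 array controls were left out, and 26444 probe sets that reached a signal of 100 on 4 or more arrays were kept, in place of the present call of the methods. Of the 55 collagen probe sets 52 were kept. The model of limma with a trend on mean signal gave each difference, and p-values were adjusted over all probe sets kept by the Benjamini-Hochberg method. Exact permutation tests were two-sided over all assignments of the 8 arrays, and 0.0286 is the smallest p they allow. The methods' t-test on log2 signal was computed with their ratio of 1.5.

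Every collagen was accounted for by class. Values on each array were given for Col1a1, Col1a2, Col3a1, Col4a1, Col4a2, Col6a3 and Col13a1, for collagens with an unadjusted p under 0.05 or groups that did not overlap, and for the 3 with the largest absolute log2 fold change. Up to 3 genes of each matrix list with the smallest p were named. The values of other genes were chosen after they were seen, among them Col4a4, Col6a5, Col9a1, the dimmer probe sets, Lox, Bgn, Rbp4, the endothelium and the cartilage markers. The RefSeq table lists 44 collagen genes, of which 11 were not analysed here. Promoter windows from RefSeq (GRCm38.p6) matched 28 of the 33 measured collagens. The alternatives were log2(signal + 32), a floor of 100, no filter or one at 200, median centring or quantile normalization, array weights, a robust fit, a fit with no trend, a block for the replicate number, leaving out single arrays, a covariate of yolk sac transcripts, leaving out the 4 Apoa1-high arrays, the mean of all probe sets and the other probe sets of a gene. The scripts were tested on simulated data. Correlations between arrays were 0.944 to 0.982, with no identical pair. With 4 arrays a group, precision is limited by the number of mice.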

Additional observations from a re-analysis of the deposited data

Results flagged for a closer look

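In 8 of 66 groups of 4 arrays, the highest or the lowest array stood apart from the other 3, with a gap to its nearest neighbor, as a share of the range of the group, above Dixon's 95% critical value. For normally distributed values chance gives this in about 1 of 20 groups, and the genes share arrays. The rule was applied to linear signals of collagens only, and the share over all genes was not obtained. The count of 8 is therefore not read as a trait of collagens. Among the Cox-1 KO arrays, Col4a1 was highest on replicate 1, at 38761 against 32495 to 32775 (gap 0.955 of the range). Col8a2 was highest on Cox-1 KO replicate 4, at 547 against 291 to 303 (0.953), and so was Col9a1, at 1120 against 17 to 42 (0.977). Among the wild-type arrays, replicate 1 was highest for Col4a5, at 11310 against 8552 to 8876 (0.883), and for Col4a6, at 2670 against 1559 to 1715 (0.86). It was also highest for Col5a1, at 18175 against 15501 to 15876 (0.86), and for Col16a1, at 5419 against 4688 to 4799 (0.848). For Col9a1 wild-type replicate 1 was the lowest, at 41 against 99 to 105 (0.906).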

How the results depend on the processing

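No collagen passed an adjusted p of 0.05 under any alternative of the limma fit or with the methods' t-test after Benjamini-Hochberg adjustment, and 1 (Col13a1) passed the thresholds of the methods when p was not adjusted. Col4a6 had a log2 fold change of -0.62 to -0.36 over 21 alternatives, with an unadjusted p under 0.05 in 21 of them and adjusted p-values of 0.277 or more. Col4a5 had -0.30 to -0.13, with an unadjusted p under 0.05 in 17 of 21. Col11a1 had -0.25 to -0.14, with such a p in 16, and Col15a1 -0.45 to -0.24, with such a p in 14.

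The 4 collagens lower at an unadjusted p became 1 (Col4a6) without the trend and 1 (Col4a6) without the 4 arrays high in Apoa1, where the only Cox-1 KO array left was assumed to vary like the wild-type arrays. Leaving out each array in turn gave 2 to 5, with 2 (Col4a6 and Col11a1) without Cox-1 KO replicate 4. The 0 higher became 1 without a filter (Col13a1) and 1 without the trend (Col4a4), and were 0 to 2 with an array left out, 2 (Col4a4 and Col17a1) without wild-type replicate 3. The 0 with every Cox-1 KO array above became 1 without a filter and were 0 to 2 with an array left out. The 2 with every Cox-1 KO array below became 1 with the mean of all probe sets and were 2 to 4 with an array left out, 4 without Cox-1 KO replicate 2. The number of all genes past an adjusted p, 1 in the main setting, became 2 with log2(signal + 32), 3 with median centring, 4 with a floor of 100 on signals, 3 with a robust fit, 8 with array weights, and 0 without the trend, without the 4 arrays high in Apoa1 or with the mean of all probe sets. It was 0 to 12 with an array left out, 12 without wild-type replicate 1. The cause of these moves was not tested.

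The labels do not say that equal replicate numbers pair the samples, and the main fit used no pairing. Deviations of same-numbered arrays correlated at -0.254, 0.219, -0.181 and 0.165. The methods state that balanced groups of samples were processed side by side, without naming them, and these correlations cannot decide whether same-numbered samples were. A fit with the replicate block had 5 collagens lower at an unadjusted p, with Col6a4 added to the 4, and 1 higher (Col17a1), and gave Col4a6 an adjusted p of 0.277.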
